A study of Rattus norvegicus with 98 samples.

Results

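The ventral tegmental area (VTA) and the periaqueductal grey (PAG) of the rat were compared by their peak lists of H3K27ac, the acetylated histone residue that marks active promoters and enhancers. The comparison took in 8 of the 94 libraries with a peak list, 4 from the VTA and 4 from the PAG, chosen by their labels alone. In each region 2 libraries came from animals given fluoxetine, a selective serotonin reuptake inhibitor, in the drinking water (FT) over 6 weeks, with a daily dose of 18 mg per kg, and 2 from animals given water (Sham). All animals were male Long-Evans rats, 2 months old when treatment began, and each library was made from tissue punches pooled over several animals. The study was designed to compare FT with Sham within 25 regions for which peak lists were analysed here, and the region comparison uses the same lists across that design. A pooled punch holds all cell types of its area together, so a peak that differs between the regions can come from a different mix of cells or from a different state of the same cells, and these cannot be told apart.

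Both areas lie in the midbrain. The VTA is best known for dopamine neurons that project to the nucleus accumbens and prefrontal cortex and act in reward and motivation, beside GABA and glutamate neurons. The PAG surrounds the cerebral aqueduct and holds mainly glutamate, GABA and peptide neurons that act in defensive behaviour, pain control and autonomic responses. Promoters of broadly used genes tend to carry H3K27ac in many tissues, whereas enhancers tend to carry it in fewer, so peak lists of different tissues usually share a core and differ around it. An annotation of the Rn5 rat genome, on which the lists are written, was not used here. Loci are therefore given by position, genes were not assigned to them, and marker genes of dopamine or other neurons were not examined.

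The lists themselves were of similar size in both regions. The full lists held 43051 and 32828 peaks in VTA Sham, 46592 and 48259 in VTA FT, 39372 and 30192 in PAG Sham, and 41637 and 42639 in PAG FT (replicates 1 and 2 in each case). The VTA mean was 42683 ± 6919 peaks and the PAG mean 38460 ± 5679 (SD, n = 4 libraries each), and the ranges overlapped (exact permutation test, two-sided, p = 0.371, where the smallest possible p is 0.0286). With the VTA and PAG libraries of the same treatment and replicate number set side by side, the VTA list was the longer in 4 of 4 pairs (exact sign-flip test, two-sided, p = 0.13, the smallest that 4 pairs allow). Sequencing depth is unknown for all of these lists, so every list was cut to the 30192 best peaks by maxScore, the highest filter score within a peak. That is the length of the shortest list, PAG Sham replicate 2.

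On lists of equal length the peaks covered 58.1, 49.6, 59.8 and 61.6 Mb in the VTA libraries and 57.7, 45.6, 61.1 and 60.2 Mb in the PAG libraries, in the order Sham 1, Sham 2, FT 1, FT 2. Median peak width was 1900, 1600, 2000 and 2000 bp in the VTA and 1900, 1500, 2000 and 2000 bp in the PAG. The second Sham library was the lowest of its region in both. For none of 7 such summaries did VTA and PAG differ by the exact permutation test, with p from 0.371 to 1 and adjusted p from 0.9 to 1 (Benjamini-Hochberg). The mean difference in covered length was 1.13 Mb in favour of the VTA, against SDs of 5.31 and 7.18 Mb within the regions.

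**Figure D1:**
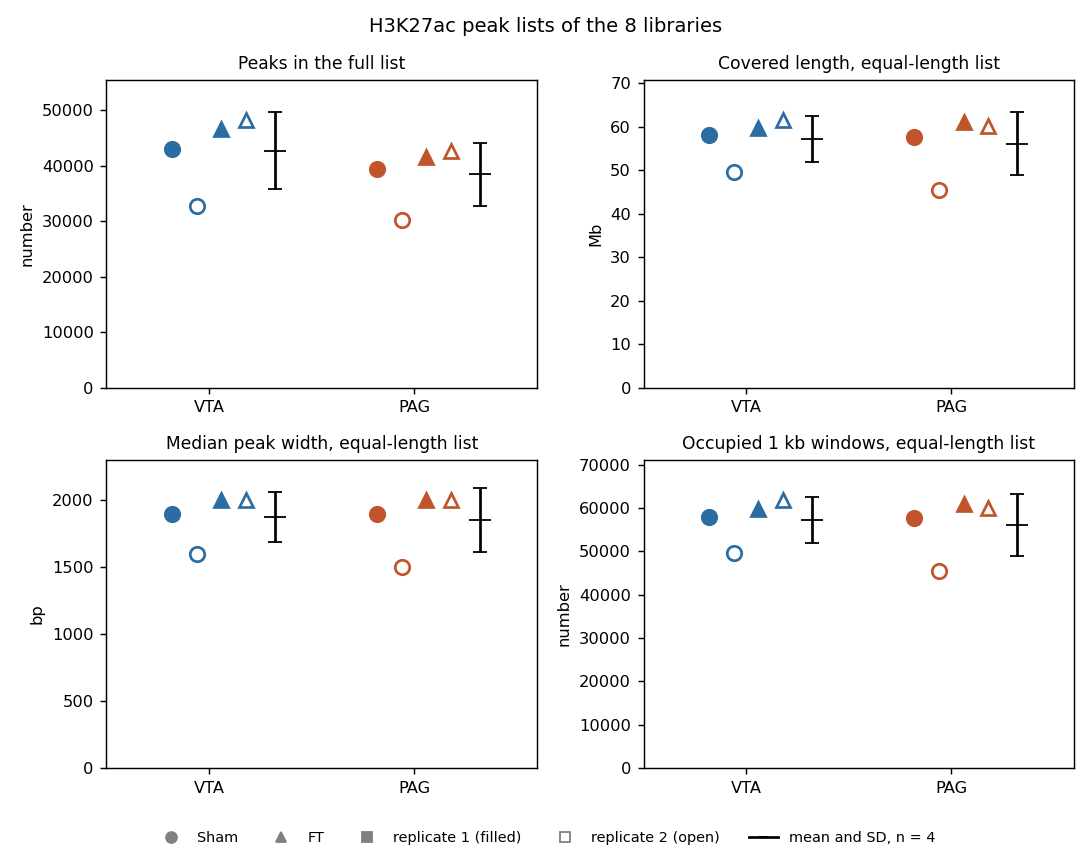
Peaks in the full list, and covered length (Mb), median peak width (bp) and number of occupied 1 kb windows in lists of equal length, for each of the 4 VTA and 4 PAG libraries, with the mean and SD of each region as black bars. The regions overlap in every panel, and the second Sham library (open circle) is the lowest of its region, at 32828 peaks in the VTA and 30192 in the PAG.

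The positions of the peaks, in contrast to their number, separated the regions. Peaks were placed on consecutive 1 kb windows of the genome, and a library occupied a window where its peaks covered 50% or more of the bases. Pairs of libraries were scored by the Jaccard index, which is the shared part of their occupied windows as a fraction of all windows that either occupied. It was 0.715 ± 0.062 within the VTA (SD, n = 6 pairs, range 0.653 to 0.806), 0.706 ± 0.088 within the PAG (SD, n = 6 pairs, range 0.614 to 0.797) and 0.388 ± 0.031 between the regions (SD, n = 16 pairs, range 0.343 to 0.436). No pair across regions reached the least similar pair within a region. The mean within regions exceeded that between regions by 0.323, more than any other division of the 8 libraries into groups of 4 (exact permutation test, one-sided, p = 0.0286, the smallest possible). The same difference was 0.279 among the Sham libraries and 0.399 among the FT libraries.

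**Figure D2:**
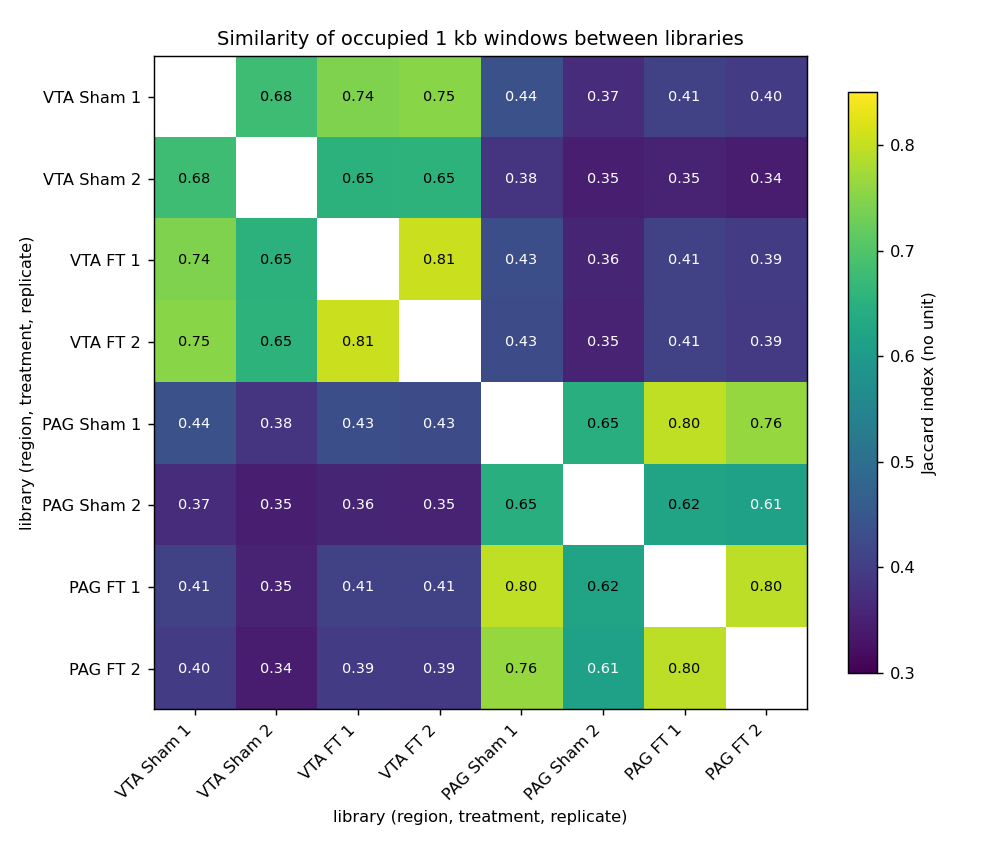
Jaccard index of occupied 1 kb windows for every pair of the 8 libraries, from lists of equal length, with the value in each cell. The 2 blocks within a region run from 0.614 to 0.806, and the block of VTA against PAG from 0.343 to 0.436.

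Set against all 94 lists, the PAG label held for each of its 4 libraries, whose most similar library was another PAG library at 0.646 to 0.797. In the VTA, 3 of the 4 libraries had a VTA library as nearest. The exception was VTA Sham replicate 1, which was closest to Raphe Sham replicate 1 at 0.77, above its index of 0.679 to 0.753 with the other VTA libraries. As a region, the VTA was most like Snt (the nucleus of the solitary tract; mean index 0.704), Raphe (the serotonergic raphe; 0.697) and LH (lateral hypothalamus; 0.659). The PAG came 22nd of 24 in likeness to the VTA, at 0.388. Of the regions below it, PLC (prelimbic cortex, 0.386) included 1 list shorter than 30192 peaks, and HB (habenula, 0.323) ranged from 0.0019 with its Sham library, which stood apart from the other lists, to 0.682 with its FT library. The PAG was most like LC (the locus coeruleus, the main noradrenergic nucleus of the brain) at 0.562, followed by Raphe at 0.438, and the VTA came 6th of 24. LC was as close to the VTA, at 0.561, where it came 11th. Libraries of other regions exceeded a library's least similar own-region partner far more often in the VTA. They numbered 11, 3, 17 and 19 for the VTA libraries and 1, 0, 1 and 0 for the PAG libraries (Sham 1, Sham 2, FT 1, FT 2). The mean index of the VTA with Snt, 0.704, lay close to the 0.715 within the VTA. The highest pairs with another region reached 0.77 for the VTA, where the least similar own pair stood at 0.653, and 0.665 for the PAG, where it stood at 0.614.

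Which windows carried this difference was examined next. A window occupied in 4 of 4 libraries of one region and 0 of 4 of the other was taken as separating, VTA-side or PAG-side by the region that held it. A total of 105186 windows were occupied in at least 1 of the 8 libraries. Of these, 9813 (9.33%) were VTA-side and 11433 (10.9%) PAG-side, together 20.2%, and 21317 (20.3%) were occupied in all 8 libraries. Just outside the rule, 5205 windows were held by 3 VTA and 0 PAG libraries and 2809 by 4 VTA and 1 PAG library, and on the other side 5504 by 3 PAG and 0 VTA libraries and 1617 by 4 PAG and 1 VTA library. Windows divided evenly, at 2 libraries of each region, numbered 599. A single window of 4 against 4 libraries cannot pass a corrected test, so these counts are descriptions. Dividing the same 8 libraries by treatment gave 162 windows (0.154%) held by 4 FT and 0 Sham libraries, and 2 windows (0.0019%) in reverse. A window counted there must differ by treatment in both regions, so changes limited to 1 region are left out and the size of a treatment effect cannot be read from it. The count of 162 was unstable, at 190 to 571 with 1 library left out, where the rule is looser, and 13 to 571 over all alternatives.

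**Figure D3:**
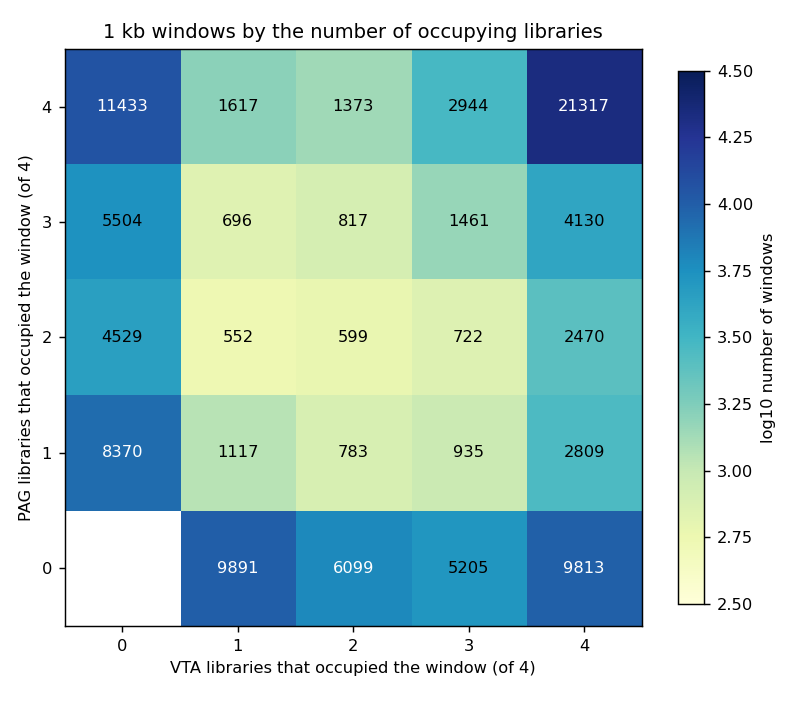
Number of 1 kb windows by how many of the 4 VTA libraries (horizontal axis) and how many of the 4 PAG libraries (vertical axis) occupied them, with colour on a log10 scale. The corners hold 9813 VTA-side windows, 11433 PAG-side windows and 21317 windows shared by all 8 libraries, while the centre cell holds 599.

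The second Sham library of each region stood apart from the others. Its mean index with its own region was 0.662 in the VTA, against 0.725 to 0.738 for the other VTA libraries, and 0.627 in the PAG, against 0.724 to 0.738. Without both libraries, 13149 windows were VTA-side and 16247 PAG-side by the rule of 3 against 0. Leaving libraries out cannot lower these counts, because the looser rule keeps every window of the full rule. The counts therefore cannot decide whether the difference rested on these libraries. The Jaccard difference without them is given below, and it cannot decide this either. Both libraries were picked for a low index with their own region, so leaving them out raises the mean within regions.

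The region difference was then taken apart by treatment, with the rule of 2 of 2 against 0 of 2. Within Sham, 13825 windows (15.5% of 89226) were VTA-side and 13290 (14.9%) PAG-side. Within FT, 18543 (19.4% of 95443) were VTA-side and 20376 (21.3%) PAG-side. The VTA-side windows found in both treatments were 71% of the Sham list and 52.9% of the FT list, and the PAG-side windows found in both were 86% of the Sham list and 56.1% of the FT list. Leaving out a library cannot lower these counts, because the rule then asks for fewer libraries. Without VTA Sham replicate 2 the VTA-side count within Sham was 21771, and without PAG Sham replicate 2 the PAG-side count was 21736. Each was the highest for its side within Sham with any library left out. Within FT the counts also rose, to at most 24025 VTA-side and 24371 PAG-side. A rise alone does not show that the counts depended on the second Sham libraries.

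Reversals between treatments were rare. Of the VTA-side windows within Sham, 4 were PAG-side within FT, and of the PAG-side windows within Sham 13 were VTA-side within FT. By the sign of the difference in number of libraries, 89.6% of the VTA-side Sham windows leaned to the VTA in FT, 10.1% were even and 0.311% leaned to the PAG. For the PAG-side Sham windows, 93.6% leaned to the PAG in FT, 5.92% were even and 0.451% leaned to the VTA. Designs of 2 against 2 cannot give a p below 0.33, so no window was tested within a treatment.

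The windows of the 2 sides differed in where they stood in the lists. Their scores are given as percentiles of a list, where 100 is the best peak. The median peak over a VTA-side window stood at the 50.1, 55, 43.4 and 44.5 percentile in the 4 VTA libraries, in the order Sham 1, Sham 2, FT 1, FT 2. The median peak over a PAG-side window stood at 61.3, 62.5, 63 and 63.6 in the 4 PAG libraries, higher in each than in any VTA library for its own side. Windows shared by all 8 libraries lay higher still, at 75.3 to 78.6 in the VTA libraries and 72 to 73.3 in the PAG libraries. Peaks over VTA-side windows were 1700 to 2000 bp wide at the median and peaks over PAG-side windows 1800 to 2300 bp. VTA-side windows joined into 7339 loci, of which 4972 were a single window and 103 reached 3 or more. PAG-side windows joined into 7670 loci, of which 4392 were a single window and 439 reached 3 or more.

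The surroundings of separating windows were often free of peaks in the other region. For 74.5% of VTA-side windows and 86.6% of PAG-side windows, no peak of any library of the other region lay within 1 kb in the lists of equal length. In the full lists these shares were 34.3% and 61.7%. Peaks removed by the cut thus lay near VTA-side windows more often than near PAG-side windows. This was so although the PAG lists, which bear on the VTA side, had kept 70.8 to 100% of their peaks in the cut, and the VTA lists 62.6 to 92%.

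Named loci were the 10 longest runs of separating windows on each side, and the PAG-side runs were the longer. Of the VTA-side loci, 1 had 5 kb and 7 had 3 kb, whereas 9 of the PAG-side loci had 5 kb and the last had 4 kb. The longest VTA-side locus was chr5:142423001-142428000. Peaks covered 4600, 4500, 4700 and 4700 bp of it in the VTA libraries (Sham 1, Sham 2, FT 1, FT 2) and 0 bp in each PAG library. Its best peak stood at the 61.9 to 70.2 percentile. In the full lists, PAG Sham replicate 1 covered 1000 bp and PAG FT replicate 1 covered 1800 bp of it, so the locus was weakly marked in part of the PAG libraries.

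The next VTA-side loci in length were chr1:219162001-219166000 and chr6:54276001-54280000. At the first, the VTA libraries covered 3660, 3416, 3490 and 4000 bp and the PAG libraries 0 bp, also in the full lists. At the second, the VTA libraries covered 4000, 3727, 3927 and 4000 bp, and 3 PAG full lists covered 600 to 908 bp. Their peaks were of middle rank, with means over libraries at the 48.6 and 43.1 percentile, and neither was held to 4 against 0 libraries when only the 10000 best peaks were kept.

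The VTA-side loci of 3 kb had stronger peaks. The best by score with no PAG peak in the lists of equal length was chr2:209074001-209077000, where each VTA library covered 2500 bp with a peak at the 96.6 to 97.8 percentile. PAG libraries covered 0 bp of it, and in the full lists PAG FT replicate 2 covered 900 bp. At chr4:133355001-133358000 the VTA libraries covered 2300, 2200, 2300 and 2300 bp at the 84.8 to 92.7 percentile, and no PAG library covered a base even in its full list. The loci chr5:132036001-132039000, chr14:37109001-37112000 and chr14:76686001-76689000 were covered over 2100 to 2500 bp in each VTA library, and in the full lists 3 of the 4 PAG libraries covered 800 to 1500 bp of each.

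At 2 VTA-side loci the PAG had a narrower peak that stood as high in its lists or higher. At chr5:157026001-157029000 the overlapping peak was 4600, 4200, 4800 and 4700 bp wide in the VTA and 2500, 2300, 2500 and 2500 bp in the PAG, and it stood at the 96.4 to 98.1 percentile in the VTA and 98 to 98.5 in the PAG. At chr15:55941001-55944000 the peak was 4800, 4800, 4800 and 5000 bp wide in the VTA and 2400, 2300, 2500 and 2400 bp in the PAG, with percentiles of 86.6 to 90.9 and 98 to 98.6. These loci were separated by the extent of the mark and not by its presence.

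On the PAG side, the locus with the best mean score of those of 5 kb was chr6:68732001-68737000. The PAG libraries covered 4668, 4182, 4795 and 4792 bp of it (Sham 1, Sham 2, FT 1, FT 2) at the 84.4 to 88 percentile, and the VTA libraries covered 0 bp. In the full lists VTA Sham replicate 1 covered 700 bp. At chr19:66376001-66381000 the PAG libraries covered 5000, 5000, 5000 and 4780 bp, and at chr3:71212001-71217000 they covered 5000, 4600, 5000 and 4748 bp. No VTA library covered a base of either, in the full lists as well.

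Of the other PAG-side loci, chr19:54115001-54120000, chr15:32277001-32282000, chr1:228609001-228614000 and chr3:137440001-137444000 also had no VTA peak in any full list. Coverage in the PAG ran from 4500 to 4720 bp, 4200 to 4702 bp, 4100 to 4691 bp and 3610 to 3748 bp in that order. The last, the shortest of the 10, had the best peaks, at the 93.5 to 96.4 percentile. The loci chr2:282207001-282212000, chr3:157691001-157696000 and chr12:46087001-46092000 were covered over 4300 to 5000 bp in the PAG, and the full list of 1 VTA library covered 745 to 1100 bp of each. No peak of the other region was present in any full list at 6 of the 10 PAG-side loci and 2 of the 10 VTA-side loci.

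The 86 libraries of the other 23 regions were not used by the rule, and there the 2 sides differed widely. VTA-side windows were occupied across much of the brain: a window was held in a median of 15 of the 23 regions and 48 of the 86 libraries, and 3 of the 9813 windows were held in no other library. PAG-side windows were held in a median of 1 region and 5 libraries, and 1177 of them (10.3%) were held in no other library. For comparison, windows of all 8 libraries were held in a median of 23 regions.

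By region, the VTA-side windows were occupied at a median of 95.6% in the Snt libraries (range 93.9 to 95.9%), 91.4% in Raphe (86.3 to 96.2%) and 90.8% in LH (61.7 to 92.3%). Lower levels were found in the dorsal dentate gyrus (dorDG, median 36.1%), the insular cortex (34.6%) and the prelimbic cortex (PLC, 27.6%). All 4 lists of Snt, Raphe and LH were long enough to be cut to the same length.

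PAG-side windows followed another order. In LC they were occupied at 77.7 and 60.9% in the Sham libraries and at 53.3 and 45.1% in the FT libraries. In Raphe they were occupied at 4.83 and 4.71% in Sham and at 37.9 and 36% in FT. The 2 treatments thus overlapped in neither region, with Sham higher in LC and FT higher in Raphe. VTA Sham replicate 1 was also closest to a Raphe Sham library, as given above. In Raphe as in LC, an effect of treatment and a difference in the tissue that the Sham and FT punches held cannot be told apart. In Snt and LH, which with Raphe held the most VTA-side windows, PAG-side windows reached 1.52 to 3.28% and 2.06 to 2.48%. LC held 68.5% of PAG-side windows in at least 1 library, and 65% of VTA-side windows. The median occupancy over the 4 LC libraries was 57.1% for PAG-side and 55.4% for VTA-side windows. For 26.9% of PAG-side windows, and for 0% of VTA-side windows, LC was the one further region that held them.

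**Figure D4:**
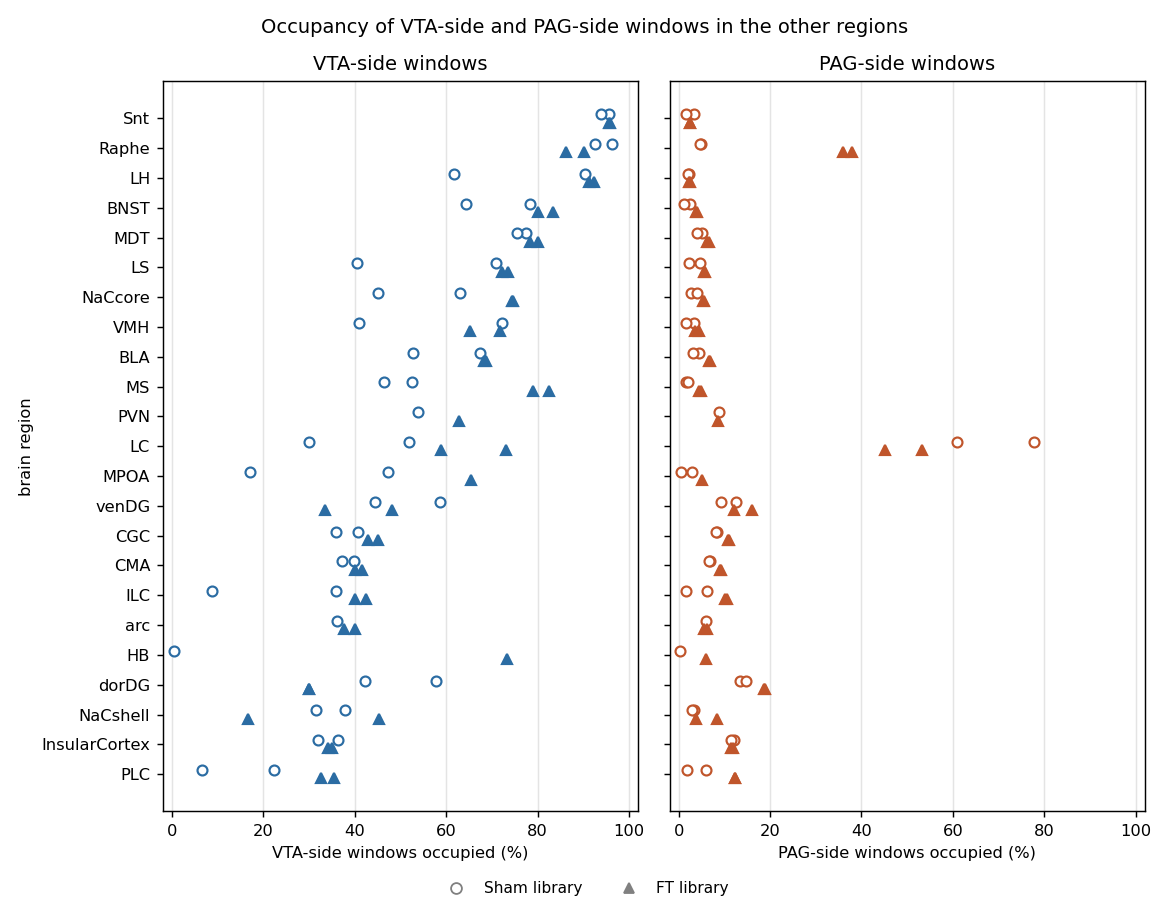
Percent of the 9813 VTA-side windows (left) and the 11433 PAG-side windows (right) occupied in each library of the other 23 regions, 1 symbol per library, open circles for Sham and filled triangles for FT. VTA-side windows are occupied over a broad range of regions, from a median of 95.6% in Snt downwards, while PAG-side windows exceed 20% only in LC and in Raphe FT, and lie at 4.83 and 4.71% in Raphe Sham. The HB Sham library lies near 0 on both sides.

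The named loci were also looked up in the other regions. All 10 loci of each side were held in at least 1 LC library, 4 of the VTA side and 6 of the PAG side in all 4. All 10 VTA-side loci were occupied in each of the 4 Snt and 4 Raphe libraries, and they were held in 37 to 81 of the 86 other libraries. Of the PAG-side loci, 7 were held in both Raphe FT libraries, none in all 4 Raphe libraries, and none was held in any Snt or LH library. They were found in 2 to 6 of the 86 other libraries.

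Elements marked in both regions were compared by rank and by width. Elements were the stretches joined from overlapping peaks of the 8 lists of equal length, 52139 in all, of which 14282 had a peak in each list. The 14053 with exactly 1 peak in each list were tested by limma with region and treatment as terms. For the rank of maxScore, 4728 elements (33.6%) stood higher in the VTA and 3990 (28.4%) higher in the PAG at an adjusted p under 0.05. The 4 values of one region lay entirely above the 4 of the other for 4439 elements (31.6%) in favour of the VTA and 3667 (26.1%) in favour of the PAG. In the full lists, which differ in length, 5655 and 2950 of 16040 elements were called. Among elements called in lists of equal length the median difference was 32 percentile points for those higher in the VTA and 19.3 for those higher in the PAG. Over all elements tested the median difference was 0.033 points, with quartiles of -10.2 and 19.5. Ranks are relative to all peaks of a list, and windows shared by all 8 libraries stood higher in the VTA lists, as given above. The part of this offset in the calls and gaps was not tested.

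The VTA-side element with the lowest p was chr5:144445267-144447868, at the 99.8, 99.8, 99.7 and 99.6 percentile in the VTA and 76.2, 74.2, 71.9 and 73.4 in the PAG (Sham 1, Sham 2, FT 1, FT 2). It was among the strongest peaks of the VTA lists and well above the median of the PAG lists (limma, adjusted p = 8.7e-07). A wider gap was found at chr1:181583526-181585590, which stood at 81.9, 86.6, 76.1 and 74.2 in the VTA and 9.08, 11, 5.91 and 6.41 in the PAG, with a difference in normal score of 2.26 ± 0.09 (SE; limma, adjusted p = 8.7e-07). Similarly, chr10:55440111-55442914 stood at 90.5 to 93.4 in the VTA and 14.3 to 25.6 in the PAG. The remaining named elements, chr1:220417061-220419760 and chr7:11592402-11595702, lay above the 98 percentile in each VTA library and at 46.2 to 59.3 in the PAG libraries.

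In the other direction, chr12:45666307-45669009 stood at the 99.8 percentile in each PAG library and at 62, 51.4, 39.3 and 50.2 in the VTA libraries. The element chr10:103030205-103033132 stood at 99.7 to 99.8 in the PAG and 32.2 to 51.8 in the VTA, with the largest difference of those named, a normal score lower in the VTA (-2.99 ± 0.12 (SE); limma, adjusted p = 8.7e-07). The weakest in the VTA was chr19:58315252-58317820, at 15.5 to 19.8 against 91 to 94.5 in the PAG. The elements chr17:14825816-14828801 and chr5:26848969-26852881 lay at 98.7 to 99.1 in the PAG, and at 44.9 to 48.6 and 54.7 to 63.7 in the VTA. None of these 10 elements had values that overlapped between regions, which the rule for naming required.

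Peak width differed at fewer elements than rank. By limma on log2 width, 2089 elements (14.9%) were wider in the VTA and 839 (5.97%) wider in the PAG at an adjusted p under 0.05, and the 4 widths of one region lay above the 4 of the other at 2742 (19.5%) and 852 (6.06%). The median difference over all elements was 25 bp, with quartiles of -125 and 300 bp, in steps of 100 bp per peak. The median difference, VTA minus PAG, was 600 bp in elements called wider in the VTA and -625 bp in those called wider in the PAG. These counts changed with the libraries used. Leaving out 1 library moved the VTA count to between 682 (without VTA FT replicate 2) and 2941 (without PAG Sham replicate 1) and the PAG count to between 294 (without VTA FT replicate 2) and 1170 (without PAG Sham replicate 2). Without both second Sham libraries the counts were 3713 and 2807. With VTA and PAG libraries of the same treatment and replicate number joined as a block, they were 2807 and 1685.

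The width element with the lowest p was chr7:12589802-12591901, where peaks were 1700, 1800, 2100 and 2000 bp wide in the VTA and 400, 400, 500 and 500 bp in the PAG (limma, log2 difference 2.08 ± 0.05 (SE), adjusted p = 6.7e-06). A similar change was found at chr1:101538991-101540925, at 1800, 1900, 1900 and 1900 bp against 400, 300, 400 and 500 bp. At chr15:55940902-55946002, which contains the separating locus of chromosome 15 described above, and at chr5:63518582-63523964, peaks of 4500 to 5000 bp in the VTA faced peaks of 2100 to 2500 bp in the PAG. At chr1:236787491-236789325 the VTA peaks were 1700 to 1800 bp and the PAG peaks 800 to 900 bp wide.

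Of the elements wider in the PAG, chr1:45316791-45321609 led, with peaks of 2100, 1800, 1800 and 1900 bp in the VTA and 4700, 4600, 4800 and 4800 bp in the PAG (limma, log2 difference -1.32 ± 0.07 (SE), adjusted p = 3e-04). At chr10:105722604-105728241 the widths were 1800, 1800, 1700 and 1900 bp against 5100, 4000, 5000 and 4800 bp. The elements chr10:85265333-85269641, chr14:84787308-84792205 and chr11:80899301-80904501 were 3900 to 4800 bp wide in the PAG and 1500 to 2400 bp in the VTA. In all 5 the PAG peaks were wider than the VTA peaks in Sham and in FT alike. The rule for naming allowed no overlap between regions, so this was fixed by the choice.

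Rank and width mostly moved together. Of the elements wider in the VTA 93.2% also ranked higher there, and of those wider in the PAG 85.7% ranked higher there. The reverse shares were 41.2 and 18%, so most differences in rank came without a called difference in width. These shares rest on the width calls from all 8 libraries, whose number changed with the libraries used, as given above. Shares under other sets of libraries were not examined. In 65 elements the calls for rank and width had opposite directions. Score and width are read from the same peak and are not independent measures.

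**Figure D5:**
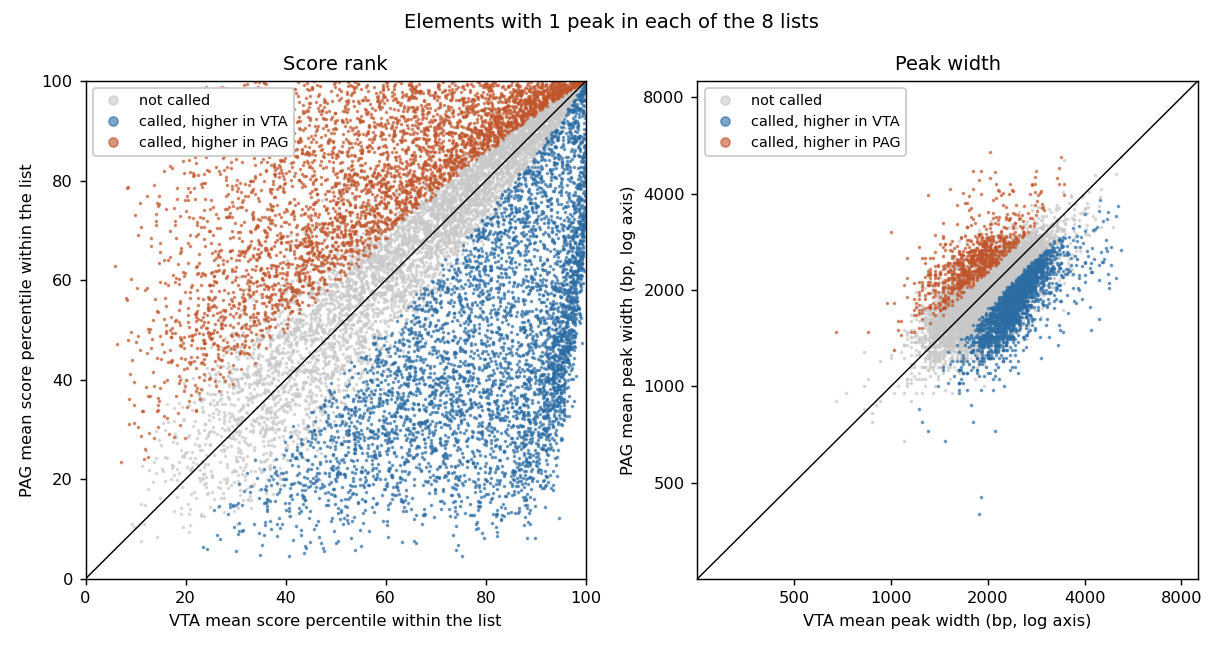
Mean over the 4 PAG libraries against mean over the 4 VTA libraries for the 14053 elements with 1 peak in each list, for the score percentile within a list (left) and the peak width in bp on log axes (right). Points are coloured by the limma call at an adjusted p under 0.05, with 4728 and 3990 elements called for rank and 2089 and 839 for width in favour of the VTA and of the PAG. The elements ranked higher in the VTA reach farther from the diagonal, with a median difference of 32 against 19.3 percentile points.

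Whether fluoxetine altered the region difference was tested by the interaction of region and treatment in limma. No element passed for rank or for width (0 of 14053 each, with a lowest adjusted p of 0.108 for rank and 1 for width), while 1250 (8.89%) and 107 (0.761%) had an unadjusted p under 0.05. For rank that share is above the 5% that a threshold of 0.05 would give if no element had an interaction. For width it is far below that 5%, so the width fit returned fewer low p-values than the threshold allows. Its lack of calls therefore cannot show that widths had no interaction, and the cause was not tested. The elements called for region were chosen on all 8 libraries, so their direction within a treatment is largely fixed by that choice. As a description, it was the same within Sham and within FT for all but 2 of the 3990 elements ranked higher in the PAG and for all elements of the other 3 lists. As the interaction rests on 2 libraries per cell, differences between treatments smaller than the spread of replicates were not detectable.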

How the data were processed

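H3K27ac ChIP-seq libraries were made from pooled micropunches. Per the study's methods and labels, the authors aligned reads to Rn5 (the processing notes list BWA, without a version) and called peaks with DFilter in each library. The deposited lists give each peak's position, 2 scores (maxScore and a normalised tag count), the −log10 p-value (4 to 200 in the deposited lists) and the false discovery rate as a percent, deposited as 0 throughout. Read counts were not in the lists, so the depth is unknown, and the study's test on reads per peak was replaced by window occupancy, ranks and widths.

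Lists were cut to the 30192 best peaks. Windows were 1 kb, occupied at 50% coverage. Ranks were turned into normal scores and widths into log2, and both were fitted with limma 3.58.1 (R 4.3.3) under Benjamini-Hochberg adjustment at 0.05. Summaries were tested by exact permutation with numpy 2.4.6. The placing of peaks on windows and the limma fits were tried on simulated data, and the permutation tests were not. Starts were read as counting from 0, and printed positions count from 1.

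The members, rules and lists were chosen with earlier results of these data known. Loci were named by length and then mean score, 10 a side, and elements by the lowest limma p among those called without overlap between regions, 5 per direction and measure. Marker gene lists were not used here. The methods give 1 set of animals per treatment for all regions, so libraries of both regions may share animals and p-values bear on these pools. The list length, score, window size, coverage rule, p threshold, replicate block and each left-out library were varied.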

Additional observations from a re-analysis of the deposited data

Results flagged for a closer look

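The mean Jaccard index with the own region was 0.662 for VTA Sham replicate 2 and 0.627 for PAG Sham replicate 2. Each lay farther below the other 3 libraries of its region than Dixon's criterion for 4 values allows. Chance marks about 1 in 20 groups, and 16 groups of 4 values were examined. Both libraries also had the shortest full list and the narrowest peaks of their region, and the part of these properties in their position was not tested.

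PAG-side windows were occupied more often in both FT libraries of Raphe than in both Sham libraries, with a gap of 31.1 percentage points between the lower FT and the higher Sham library. VTA-side windows were occupied more often in both Sham libraries of dorDG than in both FT libraries, with a gap of 12.3 points between the lower Sham and the higher FT library. Gaps over 10 points were looked for in the 11 other regions with 4 lists of full length. Both signals lie in libraries outside the comparison of VTA with PAG, and neither difference was tested, since 2 libraries against 2 cannot give a p below 0.33.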

How the results depend on the processing

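Depth is unknown, so a window without a peak may be a weak peak below the caller's limit. The windows of 4 against 0 libraries made up 15.2 to 33.5% of occupied windows over 18 alternatives, and 33.5% with the 10000 best peaks. Counts that moved by over 1.5 times follow, in the order all libraries, within Sham, within FT. With the 10000 best peaks the PAG-side counts were 7178, 8773 and 10058, and the VTA-side count within FT was 9842. With 5 kb windows the VTA side had 663, 846 and 1271 windows and the PAG side 549, 621 and 1578. With any overlap counted as occupied, the VTA side had 14774 in all and 20920 within Sham, and the PAG side 18093 and 20930. With full coverage required, the counts were 4471, 6391 and 9840 against 5032, 5859 and 10922. With each peak placed in the window of its centre they were 4560, 7573 and 9249 against 5664, 7868 and 9943. The larger of the 2 sides differed between settings, and no direction is drawn from it. The count of 4 FT against 0 Sham windows (162) was 290 in full lists, 34 with the 10000 best peaks, 74 at equal covered length, 105 at a −log10 p of at least 6, 13 with 5 kb windows and 49 with centres.

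Leaving out 1 library gave 10260 to 12655 VTA-side and 11552 to 16077 PAG-side windows, 13825 to 21771 and 13290 to 21736 within Sham, 18543 to 24025 and 20376 to 24371 within FT, and 190 to 571 windows of FT against Sham. A group that lost a library needed 3 of 3 or 0 of 3 (within a treatment 1 of 1 or 0 of 1), which is looser by construction. It gave 4350 to 4674 and 3506 to 3825 elements by rank, and 682 to 2941 and 294 to 1170 by width. Without both Sham replicate 2 libraries, an alternative chosen after seeing the data, the windows within Sham were 22899 and 22593, the elements called by width 3713 and 2807, and the Jaccard difference 0.364 at p = 0.1 (exact permutation test), the smallest that 3 against 3 allow. Under the other 17 alternatives the Jaccard difference was 0.276 to 0.45 at p = 0.0286 (exact permutation test). The 7 summaries stayed above 0.05 in every alternative, with p from 0.0571 to 1. Where not given by construction, the cause of a change was not tested.

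Pairing VTA and PAG libraries of the same treatment and replicate number gave 1685 elements wider in the PAG in place of 839, 2807 wider in the VTA, and 4647 and 3825 by rank. It changed no other call. The deviations of same-numbered libraries from their group correlated at 0.012 to 0.078 over windows, and in 3 of 4 VTA libraries the correlation was highest with the same-numbered PAG library. Of the 340 values at single named loci, 160 came from leaving out a library. The loci were chosen as fully separated, so these 160 values could not move. The same holds for the values without both Sham replicate 2 libraries. Among the other values 62 moved and none reversed, and 40 of the 62 came from the full-coverage and centre rules. On the VTA side the difference in occupied share stayed above 0 at 8 of 10 loci with the 10000 best peaks, and at 8 of 10 with centres. It fell to 0 at the rest.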

Other observations

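The separating windows were spread over every chromosome examined. PAG-side windows made up 44.2% of the separating windows of chromosome 17 and 64.8% of those of chromosome 12, the lowest and highest of the 21 chromosomes. By Mb bin, the most VTA-side windows lay at chr14:37000001-38000000, with 28 of the 76 windows occupied there in any of the 8 libraries and 0 PAG-side windows. The most PAG-side windows lay at chr8:30000001-31000000, with 46 of 119 beside 5 VTA-side windows. At chr12:46000001-47000000, which holds 1 of the named PAG-side loci, 41 of 93 windows were PAG-side and 4 VTA-side. These bins were picked after their values were seen, and no test was made.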
